A study of Mus musculus with 12 samples.

Results

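The integrin and laminin genes are those whose names on the array start with Itga, Itgb, Lama, Lamb or Lamc and go on with a subunit number or letter. The binding proteins Itgb1bp and Itgb3bp are not among them. Of 37 such genes on the array, 35 had a probe whose signal was well above background on 2 or more of 12 arrays, by the scanner software's own test, and each is described by its brightest such probe. They were 16 of 17 integrin alpha genes, 8 of 9 integrin beta genes and all 11 of 11 laminin genes, out of 20048 genes tested. Itga2 and Itgb2l were well above background on 0 arrays and are not described further.

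The study compared mouse embryonic stem (ES) cells on Agilent arrays that carry 2 RNAs at once. Dicer1-null cells of clones 27G5 and 27H10, which lack the nuclease that makes microRNAs, were each set against wild-type ES cells. The same Dicer1-null clones labelled as overexpressing Dnmt1, the maintenance DNA methyltransferase, or Dnmt3a and Dnmt3b (Dnmt3a,3b), the de novo methyltransferases, were each set against their Dicer1-null parent. Every pairing was hybridised on 2 arrays with the dyes exchanged. All cells in the Dnmt comparisons, the controls included, are labelled as lacking Dicer. All cultures were kept on gelatin with leukemia inhibitory factor, per the labels. The labels name no allele, promoter or vector, and no separate cultures, so p-values measure only the spread between these samples, which may be technical. The labels do not say whether RNA of the same name was 1 extract. Each name was taken as 1 RNA, so the spread of the wild-type cells was not measured.

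An integrin is a receptor of 1 alpha and 1 beta chain that spans the plasma membrane, holds the extracellular matrix outside and links to actin through talin and kindlins inside. A laminin is a cross-shaped trimer of an alpha, a beta and a gamma chain, and it is the main adhesive protein of basement membranes. In the early mouse embryo, laminins with the alpha 1 or alpha 5 chain line the epiblast, and ES cells hold on to them chiefly through the integrin of the alpha 6 and beta 1 chains. Integrins fall into classes by ligand: laminin receptors, receptors for the RGD tripeptide of fibronectin and vitronectin, collagen receptors and leukocyte receptors.

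Values are log2 ratios of the first-named cells over their reference. A mean is given ± SD over the 2 clones (n = 2), and a gene was called when limma's moderated test gave an adjusted p under 0.05 over all 20048 genes. Each clone contributed the average of its 2 dye-swapped arrays. Over all genes tested, the ratios of these 2 arrays correlated at only r = 0.396 for the Dnmt3a,3b-labelled 27G5 cells. In the other pairings r was 0.673 to 0.91. The SD over clones does not include the gap between the 2 arrays of a clone. Over the 12 arrays the median signal ran from 112 to 135 in green and from 234 to 334 in red. Between 61.6% and 68.3% of probes in green and 64.1% and 68.6% in red were well above background, and the number of arrays limits the precision. The arrays of each Dnmt-labelled clone were on a slide of their own, and the effects of slide and of clone cannot be told apart there. The genes that name the groups were read first. Dicer1 was lower in Dicer-null cells at both of its probes, at -0.53 ± 0.04 (adjusted p = 0.00400) and -4.07 ± 0.08. The labels of overexpression were not borne out by these probes: Dnmt1 was at 0.27 ± 0.23 in cells labelled Dnmt1 (adjusted p = 0.111), and in cells labelled Dnmt3a,3b Dnmt3b was at -1.04 ± 0.59 (adjusted p = 0.0340) and the 3 probes of Dnmt3a were at -1.03 ± 0.92, -0.72 ± 0.85 and 0.20 ± 0.01. The labels do not say whether the introduced copies hold the probes' sequences, so every direction below is that of cells as labelled. All 9 measured ES cell markers (of 10 listed), among them Pou5f1, Nanog and Sox2, were well above background on at least 1 array of each of the wild-type, Dicer-null, Dnmt1 and Dnmt3a,3b conditions. In Dicer-null cells 7 of the 9 were called higher than in wild type and 0 lower (median 0.71), Nanog at 1.45 ± 0.26 and Sox2 at 0.62 ± 0.06 among them, while Pou5f1 did not pass at 0.32 ± 0.42. Their summed signal was 169000 to 176000 over wild-type channels and 202000 to 331000 in Dicer-null cells. In cells labelled Dnmt1 2 were higher and 0 lower. In cells labelled Dnmt3a,3b 1 was higher and 0 lower, with the shares of all genes given in the next paragraph. The part of this shift in the integrin and laminin values was not tested. In bulk RNA, fewer cells of a type and less RNA per cell cannot be told apart.

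In Dicer-null cells against wild type, 15 of 35 members (42.9%) were called, 8 higher and 7 lower. Over all genes tested, 20.4% were called higher and 20.1% lower. In Dnmt1-labelled cells, 11 members (31.4%) were called, 9 higher and 2 lower, against 12% of all genes higher and 11% lower. In Dnmt3a,3b-labelled cells, 9 members (25.7%) were called, 7 higher and 2 lower, against 10.4% of all genes higher and 10.8% lower. The median log2 ratio over the 35 members was -0.02, 0.03 and 0.12 in these comparisons, beside 0.01 over all genes in each. In total 20 members were called in at least 1 comparison, 11 in 2 or more and 4 in all 3, namely the laminin chain Lamb1 and the integrins Itga3, Itgb7 and Itgal. The other 15 members were called in none. Itgb6 is a member, and is in these counts, only through the Dnmt-labelled cells, where it is high. The shares of all genes called in at least 1, in 2 or more, in all 3 or in both Dnmt comparisons were not counted. The counts of members called in more than 1 comparison therefore only describe the members. The comparisons share the Dicer-null clones, whose RNAs were taken as the same, so a member's values in them are not independent of each other. The fit that made the calls took the 6 ratios as independent. With the shared RNAs modelled, 5 of 15, 0 of 11 and 0 of 9 of these calls were kept.

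In both Dnmt comparisons 7 members were called: Lamb1, Itga3, Itga5, Itgb6 and Itga2b were higher and Itgb7 and Itgal lower. Because a DNA methyltransferase acts on cytosines of CG dinucleotides, the 250 bases before the annotated start are shown for 6 of them; Itgal had no entry in the promoter table. The sequences are RefSeq's on build GRCm38.p6, read 5′ to 3′ on the gene's strand, with every CG dinucleotide in capitals. Where a gene had 2 starts, that with more CG dinucleotides is shown.
Lamb1 (chr12:31265043-31265292, plus strand): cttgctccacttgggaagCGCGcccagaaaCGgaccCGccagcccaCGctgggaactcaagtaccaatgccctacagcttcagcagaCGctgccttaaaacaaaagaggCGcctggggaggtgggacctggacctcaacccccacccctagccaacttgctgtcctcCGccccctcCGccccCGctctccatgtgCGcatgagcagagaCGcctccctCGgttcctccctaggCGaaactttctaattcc
Itga3 (chr11:95076715-95076964, minus strand): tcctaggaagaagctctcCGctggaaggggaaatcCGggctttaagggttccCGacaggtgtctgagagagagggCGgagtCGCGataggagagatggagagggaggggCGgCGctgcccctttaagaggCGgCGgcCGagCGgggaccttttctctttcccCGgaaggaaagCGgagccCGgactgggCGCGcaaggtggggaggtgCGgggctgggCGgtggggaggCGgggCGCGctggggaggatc
Itga5 (chr15:103366792-103367041, minus strand): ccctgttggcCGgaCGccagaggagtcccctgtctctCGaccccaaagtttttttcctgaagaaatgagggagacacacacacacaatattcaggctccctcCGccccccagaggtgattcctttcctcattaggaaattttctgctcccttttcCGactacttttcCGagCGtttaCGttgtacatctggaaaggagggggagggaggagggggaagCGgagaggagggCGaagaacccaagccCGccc
Itgb6 (chr2:60722604-60722853, minus strand): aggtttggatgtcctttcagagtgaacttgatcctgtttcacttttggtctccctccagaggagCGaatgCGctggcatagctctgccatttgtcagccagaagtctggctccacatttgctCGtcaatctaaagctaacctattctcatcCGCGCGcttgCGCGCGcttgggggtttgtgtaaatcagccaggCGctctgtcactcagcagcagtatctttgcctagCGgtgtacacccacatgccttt
Itga2b (chr11:102469884-102470133, minus strand): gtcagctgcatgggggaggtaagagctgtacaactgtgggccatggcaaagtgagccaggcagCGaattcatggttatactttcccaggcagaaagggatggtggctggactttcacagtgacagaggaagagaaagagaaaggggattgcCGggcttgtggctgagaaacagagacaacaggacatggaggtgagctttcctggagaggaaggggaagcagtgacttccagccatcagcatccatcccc
Itgb7 (chr15:102231936-102232185, minus strand): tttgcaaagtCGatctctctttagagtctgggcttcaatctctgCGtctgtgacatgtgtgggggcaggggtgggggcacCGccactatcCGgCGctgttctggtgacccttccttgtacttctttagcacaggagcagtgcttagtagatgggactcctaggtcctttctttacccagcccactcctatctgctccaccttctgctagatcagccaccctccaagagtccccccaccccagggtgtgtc

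These windows held 22 CG dinucleotides at Itga3, 14 at Lamb1, 11 at Itga5, 11 at Itgb6, 5 at Itgb7 and 2 at Itga2b. The 25 promoters of the 22 members in the table held 0 to 22, with a median of 10, and all 32851 promoters of the table had a median of 6. The letters GGGCGG (a GC box) stood on either strand in 9 of the 25 member promoters and in 32.7% of all promoters. The windows of Lamb1 and Itga5 held more CG dinucleotides than the median of all promoters, and those of Itga2b and Itgb7 fewer. Itga3 and Itgb6 have 2 starts each, and the window not shown held 5 at Itga3 and 3 at Itgb6, below that median, while the window shown lies above it. Methylation was not measured on these arrays.

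Of the laminin-receptor integrins, which pair alpha 3, alpha 6 or alpha 7 with beta 1, or alpha 6 with beta 4, the genes of 2 alpha chains fell in Dicer-null cells and that of beta 4 rose. Itga3 encodes the alpha 3 chain, which binds laminins with the alpha 3 and alpha 5 chains. Its probe (chr11:95153712-95153771, build mm7) gave log2 ratios over wild type of -1.12 and -1.26 on the 27G5 arrays and -1.29 and -1.52 on the 27H10 arrays. All 4 arrays were below 0, the mean was -1.30 ± 0.15 (adjusted p = 0.000734, 2.46-fold lower), and both other Itga3 probes were lower too, at -1.56 ± 0.24 and -0.39 ± 0.04. Itga7, a laminin receptor of muscle, gave -0.23 and -0.63 on the 27G5 arrays and -0.09 and -0.66 on the 27H10 arrays, a smaller fall of -0.40 ± 0.04 (adjusted p = 0.0119). Itgb4, whose long cytoplasmic tail ties epithelial cells to keratin filaments, gave 0.82 and 0.98 on the 27G5 arrays and 1.72 and 1.66 on the 27H10 arrays. It rose by 1.29 ± 0.56 (adjusted p = 0.00354, 2.45-fold higher), and clone 27H10 lay above clone 27G5 on both of its arrays. A probe overlapping the brightest in position gave 1.27 ± 0.54. Another, dimmer Itgb4 probe was called at 0.46 ± 0.20, with 27G5 at 0.60 and 27H10 at 0.32. The size of the rise and the order of the clones thus depend on the probe.

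The chains of the main laminin receptor of ES cells did not pass at their brightest probes. Itga6 stayed between -0.10 and 0.03 on the 4 arrays, with a mean of -0.03 ± 0.01 (adjusted p = 0.910). Itgb1, the common partner of most alpha chains, was below 0 on all 4 arrays, with a mean of -0.54 ± 0.02, and did not pass (adjusted p = 0.0936). Its other measured probe gave nearly the same value, -0.53 ± 0.04, and was called (adjusted p = 0.0117). The call for Itgb1 therefore depends on the probe while the ratio hardly does.

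Of the RGD-binding integrins, Itga8 fell while Itgav and Itgb5 rose. Itga8, the receptor for nephronectin in the developing kidney, had the lowest value of all members. It gave -2.86 and -2.52 on the 27G5 arrays and -1.86 and -1.74 on the 27H10 arrays, with a mean of -2.24 ± 0.63 (adjusted p = 0.00266, 4.74-fold lower). Every array was at -1.74 or lower, clone 27G5 being the lower, and its other 2 probes gave -1.89 and -0.22. The probe at -0.22 was near background, well above it on 3 of 12 arrays. Itgav, the alpha V chain that pairs with several beta chains, gave 1.07 and 1.13 on the 27G5 arrays and 1.18 and 1.19 on the 27H10 arrays. The clones hardly differ, and the mean was 1.14 ± 0.06 (adjusted p = 0.00232, 2.21-fold higher), with 0.75 ± 0.09 at a second probe. Itgb5, a partner of alpha V for vitronectin, gave 0.52 and 0.22 on the 27G5 arrays and 0.48 and 0.25 on the 27H10 arrays and a mean of 0.37 ± 0.00409, just past the threshold (adjusted p = 0.0482). The fibronectin receptor chain Itga5 did not pass, at -0.04 ± 0.14, and nor did Itgb8 at -0.07 ± 0.13. Another Itgb8 probe was called lower at -0.51 ± 0.10 (adjusted p = 0.00431). That probe was near background, well above it on 3 of 12 arrays, against 12 for the brightest. Itgb6, at -0.21 ± 0.01, was not well above background in wild-type or Dicer-null cells.

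Itgb3, the beta chain of the vitronectin receptor and of the platelet fibrinogen receptor, gave different answers at its 2 probes. The first 30 of the 60 bases of each are shown, since the result turns on which probe is read. Both lie on the plus strand of chromosome 11 (build mm7), have 45% G and C, and share no run longer than 5 bases.
A_51_P237893 (chr11:104776217-104776287): tgggactctctgccattatgtttacagagg
A_52_P553890 (chr11:104779399-104779458): ccacagcaacatcagagtctttgtccattt

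The first of these, the brighter by a small margin, was above 0 on every array numbered 1 and below 0 on every array numbered 2, in all 6 pairings. Over wild type it gave 0.66 and -0.27 on the 27G5 arrays and 0.70 and -0.32 on the 27H10 arrays. Its sign thus went with the dye orientation. The mean gap of an array to the middle of its pair was 0.60, against a median of 0.10 and a 95th percentile of 0.35 over all genes. The second probe was above 0 on all 12 arrays. Over wild type it gave 1.94 ± 0.34 (adjusted p = 0.000461), in cells labelled Dnmt1 over their parent 1.01 ± 0.22 (adjusted p = 0.00877) and in cells labelled Dnmt3a,3b 0.73 ± 0.06 (adjusted p = 0.0204). By the rule of the brightest probe, Itgb3 counts as not called in each of the 3 comparisons, while its second probe was called higher in each. No other member had opposed orientations in all 6 pairings.

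**Figure D1:**
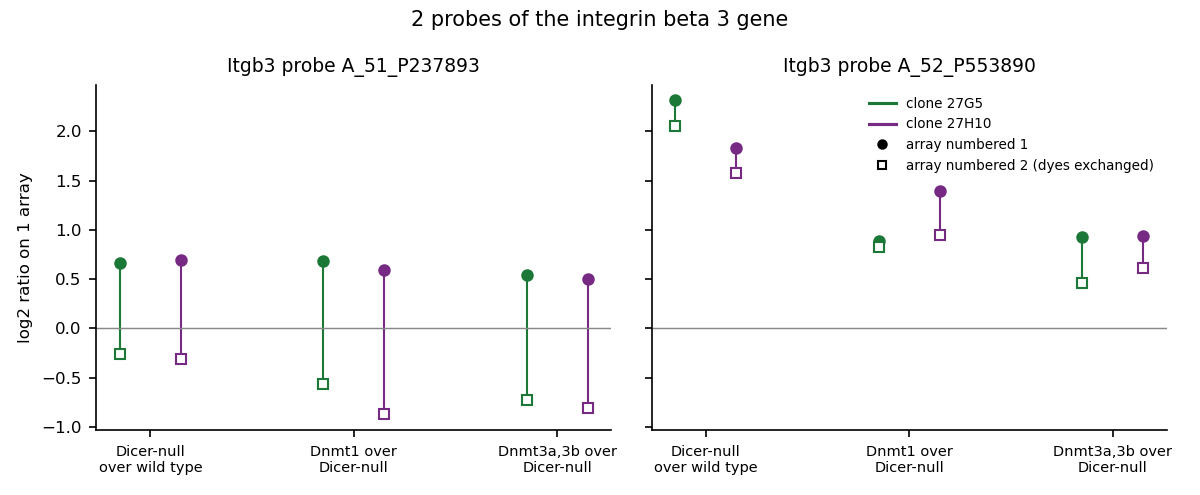
Log2 ratio of each array at the 2 probes of Itgb3, with the 2 dye-swapped arrays of a clone joined by a line, in the 3 comparisons. At A_51_P237893 the filled and open symbols lie on opposite sides of 0 in all 6 pairings, and at A_52_P553890 all 12 arrays lie above 0.

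Of the collagen receptors, Itga11, which binds fibrillar collagen in mesenchymal cells, fell in Dicer-null cells. Its probe (chr9:62812215-62812274) gave -2.00 and -1.73 on the 27G5 arrays and -1.77 and -1.71 on the 27H10 arrays. The clones overlap, and the mean of -1.80 ± 0.09 had the smallest adjusted p of any member (adjusted p = 0.000547, 3.49-fold lower). Itga1, which binds basement membrane collagen, did not pass at its brightest probe, at 0.20 ± 0.04. Its other 3 probes lay below 0, and 2 of them were called lower, at -0.46 ± 0.07 (adjusted p = 0.00601) and -0.32 ± 0.13 (adjusted p = 0.0414). These 3 were near background, well above it on only 4, 4 and 2 of 12 arrays, against 12 for the brightest. The direction of Itga1 thus differs between a probe above background and probes near it. Itga10, the cartilage collagen receptor, did not pass either, at -0.01 ± 0.04, and was well above background on only 6 of 12 arrays.

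Of the integrin genes known from leukocytes, Itgae fell, while Itgb7 and Itgal rose. Itgae encodes the alpha E chain, which pairs with beta 7 and binds E-cadherin. It gave -1.39 and -1.15 on the 27G5 arrays and -1.79 and -1.66 on the 27H10 arrays, with a mean of -1.50 ± 0.32 (adjusted p = 0.000837, 2.82-fold lower), but 0.07 ± 0.10 at its second, dimmer probe. Its partner Itgb7 (chr15:102202176-102202235) went the other way, with 0.67 and 1.01 on the 27G5 arrays and 1.21 and 1.48 on the 27H10 arrays and a mean of 1.10 ± 0.36 (adjusted p = 0.0163, 2.14-fold higher). Itgal, the alpha chain of the receptor for ICAMs on lymphocytes, gave 0.58 and 0.13 on the 27G5 arrays and 0.64 and 0.39 on the 27H10 arrays, a mean of 0.44 ± 0.11 (adjusted p = 0.0135). Its second probe was at 0.37 ± 0.07 and was not called (adjusted p = 0.0751). Itgb2, the partner of Itgal, did not pass, at -0.10 ± 0.09, and nor did Itgam, Itgax, Itga4, Itga9 or the platelet chain Itga2b, which ranged from -0.22 to 0.38. Blood cell markers were looked at beside these values: of 7 listed, 5 were measured, Itgal and Itgam among them, with 2 higher and 2 lower. Ptprc, the pan-leukocyte phosphatase, was well above background on 2 of 4 arrays in wild-type cells and on 0 arrays in the other cells, and Spi1 and Emr1 were not measured. The summed signal of the 5 was 3570 to 3920 over wild-type and 3700 to 4040 over Dicer-null channels.

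Among laminin chains, Lamb1 and Lama4 fell and Lama3, Lamc1 and Lamb2 rose. Lamb1, the beta chain of most embryonic laminins, has its probe at chr12:29168364-29169711 and gave -1.07 and -1.55 on the 27G5 arrays and -1.23 and -1.57 on the 27H10 arrays. All arrays were at -1.07 or lower, and the mean was -1.36 ± 0.06 (adjusted p = 0.00135, 2.56-fold lower). Lamb2, the beta chain that takes the place of Lamb1 in muscle and kidney laminins, gave 0.47 and 0.54 on the 27G5 arrays and 0.47 and 0.47 on the 27H10 arrays and a mean of 0.49 ± 0.03, just past the threshold (adjusted p = 0.0481). Lamc1, the gamma chain of nearly all embryonic laminins, gave 0.77 and 0.44 on the 27G5 arrays and 0.97 and 0.79 on the 27H10 arrays and rose by 0.74 ± 0.20 (adjusted p = 0.0107). Its Dicer-null signal was saturated on 2 of 4 arrays and was used at its value there, so this rise is a lower bound.

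The alpha chains of laminin went different ways in Dicer-null cells. Lama3, the alpha chain of the epidermal laminin, gave 1.71 and 1.27 on the 27G5 arrays and 1.83 and 1.48 on the 27H10 arrays, the highest mean of all members at 1.57 ± 0.12 (adjusted p = 0.00192, 2.98-fold higher). Its second probe gave -0.05 ± 0.01 and was not called. Lama4, the alpha chain of vessel-wall laminin, gave -0.48 and -0.71 on the 27G5 arrays and -0.75 and -0.96 on the 27H10 arrays and fell by 0.72 ± 0.19 (adjusted p = 0.0268). Neither alpha chain typical of the epiblast passed: Lama5 was at -0.14 ± 0.25, and Lama1 at 0.22 ± 0.57, with clone 27G5 above 0 and clone 27H10 below 0 on every array. The second Lama1 probe was above 0 in both clones, at 0.82 and 0.16, and was not called. The opposed signs of Lama1 thus depend on the probe. Lama2 was not well above background in wild-type or Dicer-null cells, and Lamb3, a beta chain that pairs with Lama3, was at 0.31 ± 0.19 and did not pass. Lamc3, at 0.10 ± 0.09, did not pass.

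**Figure D2:**
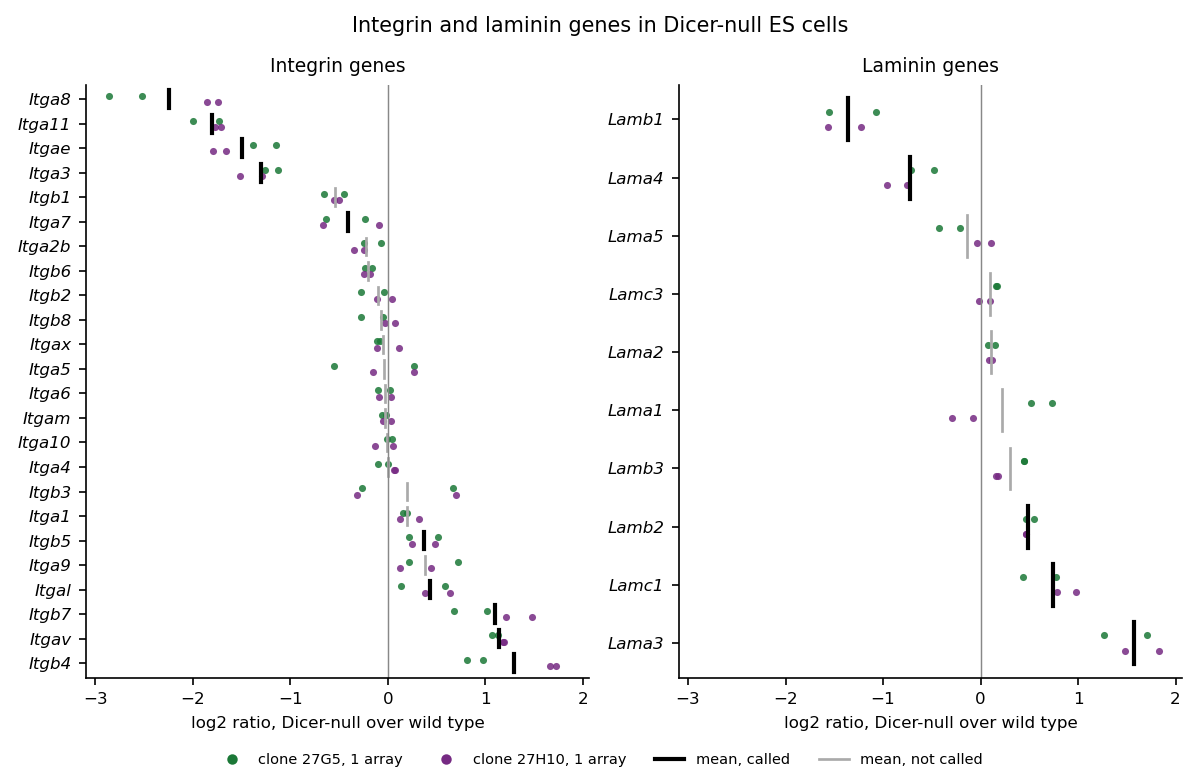
Log2 ratio of Dicer-null over wild-type cells for 24 integrin and 10 laminin genes, ordered by mean. Points are single arrays by clone, bars the mean over the 2 clones, black where called. Itga8, Itga11, Itgae, Itga3 and Lamb1 have all 4 arrays at -1.07 or lower, and Lama3 and Itgav have all 4 at 1.07 or higher.

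Of the 15 calls over wild type, 8 held when either clone's ratio was left out: Itga8, Itga11, Itgae, Itga3, Lamb1, Itgav, Itgb4 and Lama3. The other 7, Itga7, Itgal, Itgb5, Itgb7, Lama4, Lamb2 and Lamc1, did not pass without 27G5 (adjusted p = 0.0551 to 0.254) or without 27H10 (adjusted p = 0.0999 to 0.243). Itgal, Itgb5 and Lamc1 also did not pass without the arrays numbered 1, and Itga7, Lama4 and Lamb2 without those numbered 2. A model of the RNAs shared between ratios kept 5 calls, Itga11, Itga3, Itgae, Lama3 and Lamb1.

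In Dicer-null cells labelled as overexpressing a methyltransferase, the laminin receptor and RGD receptor genes that were called all rose over the Dicer-null parent. Itga5, the alpha chain of the fibronectin receptor, had the highest mean in both comparisons. In cells labelled Dnmt1 its probe (chr15:103333409-103333468) gave 0.85 and 0.33 on the 27G5 arrays and 2.13 and 1.18 on the 27H10 arrays, a mean of 1.12 ± 0.75 (adjusted p = 0.0273, 2.17-fold higher). In cells labelled Dnmt3a,3b it gave 2.34 and 0.38 on the 27G5 arrays and 1.58 and 0.77 on the 27H10 arrays, a mean of 1.27 ± 0.13 (adjusted p = 0.0204, 2.41-fold higher). All 8 arrays were above 0, but the array numbered 1 was the higher in each of the 4 pairs, and the dye orientation moved this probe by 0.46 to either side on average. Without the arrays numbered 1 the Dnmt3a,3b mean was 0.57 and was not called.

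Itga3 rose in both. In Dnmt1-labelled cells it gave 0.26 and 0.29 on the 27G5 arrays and 0.97 and 0.29 on the 27H10 arrays, a mean of 0.45 ± 0.25 (adjusted p = 0.0382; 0.0560 with the clone as a block). In Dnmt3a,3b-labelled cells it gave 1.16 and 0.11 on the 27G5 arrays and 0.85 and 0.30 on the 27H10 arrays, a mean of 0.61 ± 0.04 (adjusted p = 0.0181). Its level thus lay between that of the Dicer-null and that of the wild-type cells: its mean log2 signal was 11.92 in wild type, 10.62 and 10.40 in the Dicer-null clones 27G5 and 27H10, 10.84 and 10.97 in cells labelled Dnmt1, and 11.23 and 10.89 in cells labelled Dnmt3a,3b. The other 2 Itga3 probes were not called in cells labelled Dnmt1, at 0.44 ± 0.45 and 0.13 ± 0.23. In cells labelled Dnmt3a,3b the former was called at 0.64 ± 0.07, and the latter was not, at 0.34 ± 0.02. Itga7 rose in cells labelled Dnmt1, where it gave 0.52 and 0.15 on the 27G5 arrays and 0.80 and 0.25 on the 27H10 arrays, a mean of 0.43 ± 0.13 (adjusted p = 0.0194), and was at 0.30 ± 0.05 in cells labelled Dnmt3a,3b (adjusted p = 0.0508). Itgb4, which was higher in Dicer-null than in wild-type cells, was at -0.10 ± 0.09 and -0.07 ± 0.01 and passed in neither.

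Itgb1 lay on opposite sides of 0 in the clones labelled Dnmt1, at -0.20 in 27G5 and 0.75 in 27H10, each with 1 sign on both of its arrays, a difference that was not tested. Its mean there was 0.27 ± 0.67 (adjusted p = 0.401), and in cells labelled Dnmt3a,3b 0.31 ± 0.05 (adjusted p = 0.340). The second Itgb1 probe was called in both, at 0.43 ± 0.26 in cells labelled Dnmt1 (adjusted p = 0.0376) and 0.59 ± 0.06 in cells labelled Dnmt3a,3b (adjusted p = 0.0172). Both clones labelled Dnmt1 were above 0 at that probe, at 0.25 and 0.62, so the opposed signs depend on the probe. Itga6 was above 0 on all 8 arrays, with means of 0.45 ± 0.42 and 0.42 ± 0.34, and passed in neither at its brightest probe (adjusted p = 0.119 and 0.147). Another Itga6 probe was called in cells labelled Dnmt1 at 0.45 ± 0.10 (adjusted p = 0.0428).

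Itgb6, an epithelial beta chain that activates latent TGF-beta together with alpha V, was well above background on all 4 arrays in cells labelled Dnmt1 and all 4 in cells labelled Dnmt3a,3b, and on 0 of the 8 matched Dicer-null arrays. In cells labelled Dnmt1 it gave 0.82 and 0.81 on the 27G5 arrays and 0.87 and 1.24 on the 27H10 arrays, a mean of 0.94 ± 0.17 (adjusted p = 0.00733). In cells labelled Dnmt3a,3b it gave 0.61 and 0.81 on the 27G5 arrays and 1.07 and 1.16 on the 27H10 arrays, a mean of 0.91 ± 0.29 (adjusted p = 0.00823). Itgb6 passed the filter only through the Dnmt-labelled cells, where it is high, so its calls there are not independent of that filter. The Dicer-null signal is only a bound. It was set on each array at the larger of the probe's own signal and the lowest signal well above background. The level of Itgb6 was thus at least 1.90-fold higher in cells labelled Dnmt1 and at least 1.76-fold higher in cells labelled Dnmt3a,3b. The scanner software's own log ratio put these means at 3.46 and 3.21. Its partner Itgav rose in cells labelled Dnmt1, where it gave 0.39 and 0.25 on the 27G5 arrays and 0.92 and 0.80 on the 27H10 arrays, a mean of 0.59 ± 0.38 (adjusted p = 0.0361). In Dnmt3a,3b-labelled cells Itgav was at 0.50 ± 0.16 (adjusted p = 0.0584), while its second probe was called there at 0.58 ± 0.02. In cells labelled Dnmt1 that second probe was at 0.38 ± 0.31 and was not called (adjusted p = 0.07015).

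The leukocyte chains Itgb7 and Itgal fell in both Dnmt comparisons. Itgb7 gave -2.06 and -1.82 on the 27G5 arrays and -1.06 and -0.84 on the 27H10 arrays in cells labelled Dnmt1, a mean of -1.44 ± 0.70 (adjusted p = 0.0144, 2.72-fold lower). In cells labelled Dnmt3a,3b it gave -1.05 and -0.67 on the 27G5 arrays and -1.07 and -0.83 on the 27H10 arrays, a mean of -0.91 ± 0.06, just past the threshold (adjusted p = 0.0496). Its mean log2 signal was 12.28 in wild-type cells, 13.13 and 13.63 in the Dicer-null clones and 11.20 to 12.70 over the 4 Dnmt-labelled RNAs, so all 4 were below their Dicer-null parent.

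Itgal gave -0.57 and -0.97 on the 27G5 arrays and -0.49 and -0.83 on the 27H10 arrays in cells labelled Dnmt1, a mean of -0.71 ± 0.08 (adjusted p = 0.00723). In Dnmt3a,3b-labelled cells it gave -0.03 and -0.54 on the 27G5 arrays and -0.29 and -0.71 on the 27H10 arrays, a mean of -0.39 ± 0.15 (adjusted p = 0.0343; 0.0531 with the clone as a block). Every array was below 0 in both. The second Itgal probe was called in cells labelled Dnmt1 at -0.49 ± 0.21. In cells labelled Dnmt3a,3b it was at -0.35 ± 0.31 and was not called (adjusted p = 0.117). Itgae, the other partner of Itgb7 besides Itga4, rose in cells labelled Dnmt1 where Itgb7 fell: it gave 0.27 and 0.49 on the 27G5 arrays and 0.62 and 0.61 on the 27H10 arrays, a mean of 0.50 ± 0.17 (adjusted p = 0.0489; 0.0687 with the clone as a block). In cells labelled Dnmt3a,3b Itgae was at 0.41 ± 0.14 (adjusted p = 0.0815). The second, dimmer Itgae probe was at -0.01 ± 0.04 and 0.02 ± 0.02 in these comparisons. It was well above background on 2 of 12 arrays. Itga2b, the platelet alpha chain that pairs with Itgb3, gave 0.29 and 0.26 on the 27G5 arrays and 0.36 and 0.28 on the 27H10 arrays in cells labelled Dnmt1, a mean of 0.30 ± 0.03 (adjusted p = 0.0494; 0.0653 with the clone as a block). It gave 0.49 and 0.39 on the 27G5 arrays and 0.26 and 0.33 on the 27H10 arrays in cells labelled Dnmt3a,3b, a mean of 0.37 ± 0.11 (adjusted p = 0.0297). Its signal was near background, being well above it on 1 and 2 of 4 Dicer-null arrays in these comparisons. The summed signal of the 5 blood markers, Itgal and Itgam among them, was 2540 to 3000 in cells labelled Dnmt1. It was 2590 to 2980 in cells labelled Dnmt3a,3b, and both ranges lay below that of Dicer-null cells. The sum includes the fall of Itgal itself, and the part of these markers in the results was not tested.

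**Figure D3:**
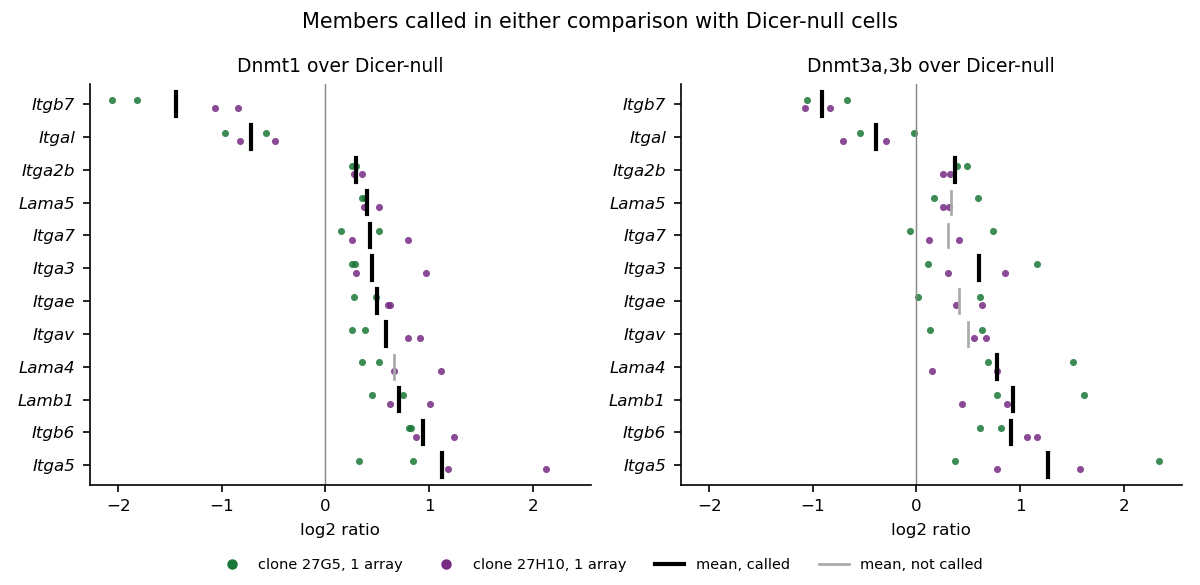
Log2 ratio over the Dicer-null parent for 12 members called in at least 1 Dnmt comparison, in both. Points are single arrays by clone, and bars the mean over the 2 clones, black where called. Itgb7 and Itgal lie below 0 on all 8 arrays, and Itga3, Itga5, Itgb6 and Lamb1 above 0 on all 8.

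Laminin chains that were called rose as well. Lamb1 gave 0.75 and 0.45 on the 27G5 arrays and 1.01 and 0.63 on the 27H10 arrays in cells labelled Dnmt1, a mean of 0.71 ± 0.15 (adjusted p = 0.0223, 1.63-fold higher). In Dnmt3a,3b-labelled cells it gave 1.61 and 0.78 on the 27G5 arrays and 0.88 and 0.44 on the 27H10 arrays, a mean of 0.93 ± 0.38 (adjusted p = 0.0116, 1.90-fold higher). The mean log2 signal of Lamb1 was 13.37 in wild-type cells, 11.98 and 11.94 in the Dicer-null clones, and 12.52 to 13.14 over the 4 Dnmt-labelled RNAs, so each of these lay between its parent and wild type.

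Lama5, the alpha chain of the laminin on which ES cells are often grown, gave 0.36 and 0.38 on the 27G5 arrays and 0.51 and 0.37 on the 27H10 arrays in cells labelled Dnmt1, a mean of 0.41 ± 0.05 (adjusted p = 0.0418; 0.0520 with the clone as a block), and was at 0.33 ± 0.07 in cells labelled Dnmt3a,3b (adjusted p = 0.0723). Lama4 gave 1.51 and 0.69 on the 27G5 arrays and 0.78 and 0.14 on the 27H10 arrays in cells labelled Dnmt3a,3b, a mean of 0.78 ± 0.45 (adjusted p = 0.0369), and was at 0.66 ± 0.32 in cells labelled Dnmt1 (adjusted p = 0.0541). Each was above 0 on all 8 arrays, and neither was called in both comparisons.

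Lama3 and Lamb3 had means below 0. Lama3 was at -0.61 ± 0.31 in cells labelled Dnmt1 (adjusted p = 0.0642) and -0.41 ± 0.47 in cells labelled Dnmt3a,3b, and Lamb3 at -0.54 ± 0.59 and -0.45 ± 0.37, and neither passed. Lama1 was at -0.48 ± 0.19 and -0.35 ± 0.02, Lamc1 at -0.14 ± 0.31 and -0.21 ± 0.23, and Lamb2 at 0.50 ± 0.35 and 0.33 ± 0.29. None of these passed in either comparison at its brightest probe. The second Lama1 probe was called in cells labelled Dnmt3a,3b at -0.84 ± 0.48 (adjusted p = 0.0414), and was at -0.65 ± 0.03 in cells labelled Dnmt1. Lamc1 was saturated on 1 of 4 arrays in each channel of the Dnmt1 comparison, and on 1 array in the Dnmt3a,3b-labelled cells and 2 in their parent, and a saturated signal is only a bound.

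Itga8 and Itga11, which were called over wild type, did not pass in either Dnmt comparison. Itga8 was at 0.77 ± 0.21 in cells labelled Dnmt1 (adjusted p = 0.113) and 0.47 ± 0.68 in cells labelled Dnmt3a,3b (adjusted p = 0.299), and Itga11 at 0.36 ± 0.36 (adjusted p = 0.118) and 0.43 ± 0.17 (adjusted p = 0.0785). Itgb5, the RGD-binding partner of alpha V, was at 0.02 ± 0.12 and 0.05 ± 0.29 and did not pass. Itgb8, another partner of alpha V, was above 0 on both 27G5 arrays and below 0 on both 27H10 arrays in cells labelled Dnmt1, with means of 0.01 ± 0.79 there and -0.38 ± 0.18 in cells labelled Dnmt3a,3b. The collagen receptor chains Itga1 and Itga10, the leukocyte chains Itga4, Itgam, Itgax and Itgb2, the tenascin receptor Itga9 and the laminin chains Lama2 and Lamc3 had means from -0.24 to 0.25 and from -0.19 to 0.36, and none passed.

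**Figure D4:**
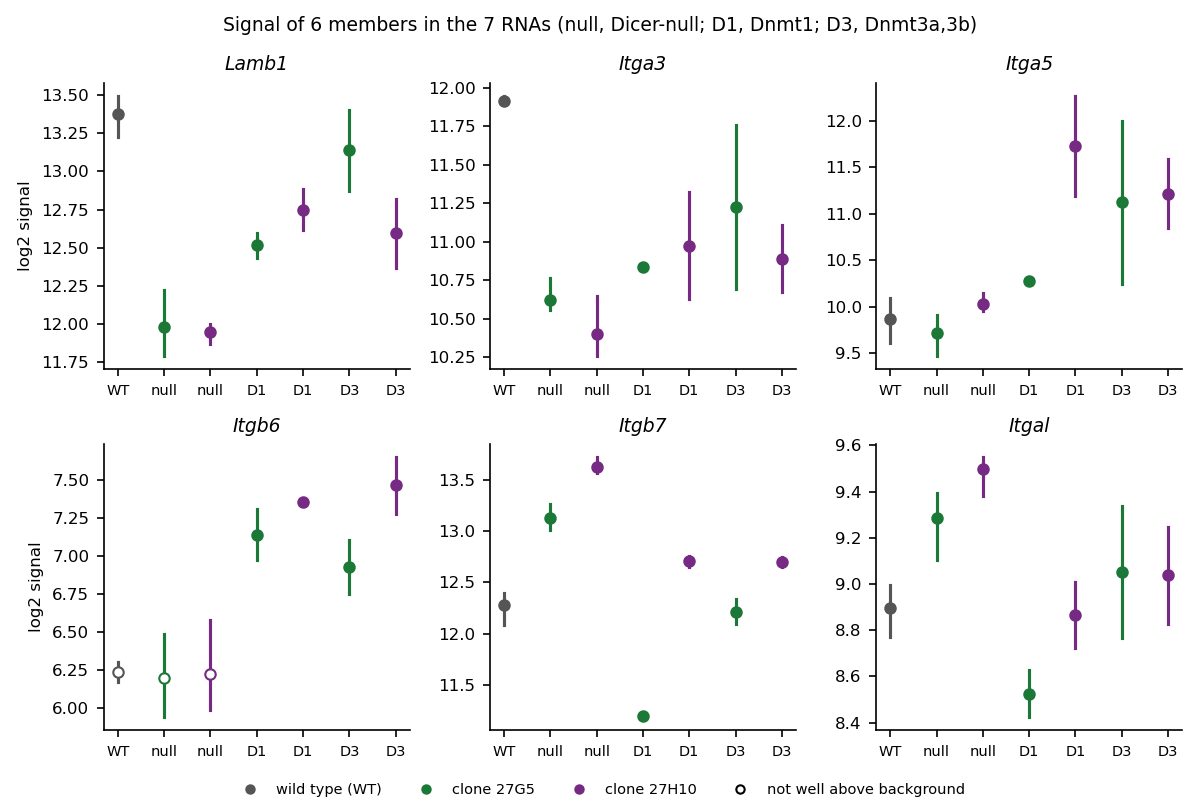
Mean log2 signal of Lamb1, Itga3, Itga5, Itgb6, Itgb7 and Itgal in the 7 RNAs, after background correction and normalisation, with lines from the lowest to the highest channel (2 to 6 channels per RNA) and a separate axis for each gene that does not start at 0. Lamb1 and Itga3 are highest in wild type, Itgb7 and Itgal in the Dicer-null clones, and Itgb6 is well above background only in the Dnmt-labelled cells.

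The Dnmt3a,3b calls rested on both clones, and in cells labelled Dnmt1 those of Itgal, Itgb6 and Itgb7 held with either clone left out. Without the 27G5 ratio 8 of the 11 Dnmt1 calls held, Itga2b, Itgae and Lama5 being lost. Without the 27H10 ratio the other 8 had adjusted p of 0.0504 to 0.238. None of the 9 Dnmt3a,3b calls held without 27G5 (adjusted p = 0.0634 to 0.272) or without 27H10 (adjusted p = 0.0555 to 0.288). The model of shared RNAs kept 0 of 11 and 0 of 9. Without the arrays numbered 1, Itga3, Itga7 and Itgav were lost in cells labelled Dnmt1 and Itga3, Itga5, Itgb7 and Lama4 in cells labelled Dnmt3a,3b. Without those numbered 2, Itga2b, Itga3, Itgae and Lama5 were lost in cells labelled Dnmt1 and Itgal in cells labelled Dnmt3a,3b. A fit of all 12 arrays with the array number as a block called 19 members in cells labelled Dnmt1 and 15 in cells labelled Dnmt3a,3b. That fit entered the 2 dye-swapped arrays of a pairing as separate, correlated observations, so its larger counts do not come from more replicates.

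The Dnmt3a,3b and Dnmt1 effects were also compared with each other, and no member was called (0 of 35). Over all genes 0% were called by limma; 189 genes, 1 of them a member, had an unadjusted p under 0.05, and the model of shared RNAs also called 0. The member was Itgal, at -0.71 ± 0.08 in cells labelled Dnmt1 and -0.39 ± 0.15 in cells labelled Dnmt3a,3b. Over the 35 members the difference, Dnmt3a,3b minus Dnmt1, ran from -0.39 to 0.54 with a median of 0.04. The members called in 1 Dnmt comparison and not in the other are therefore not shown to differ between them.

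A second probe that passed the filter existed for 16 members, and gave a value in 66 probe comparisons from 22 probes. In 50 of the 66 its sign was that of the brightest probe, and in 0 were both probes called with opposite signs. In 24 of the 66 the brightest probe was called, and in 13 of these the second probe was also called with the same sign. A call is counted here once for each second probe of its gene. In another 13 the second probe alone was called, the 3 of Itgb3 and the 3 of Itgb1 among them.

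Inside the cell, integrins act through an adhesion machinery of talin, kindlins, the ILK, PINCH and parvin complex, focal adhesion kinase and actin-binding adaptors. Of 38 such genes listed, 37 were measured. In Dicer-null cells 9 were higher and 11 lower (median -0.09), against 20.4% of all genes higher and 20.1% lower. The listed genes with the largest statistics were the LIM adaptor Tgfb1i1 at -2.47 ± 0.14, the actin adaptor Zyx at -2.45 ± 0.05, and the tensins Tns2 at -1.17 ± 0.17 and Tns1 at 0.96 ± 0.07. In Dnmt1-labelled cells, 10 rose and 1 fell (median 0.19), against 12% of all genes higher and 11% lower. In cells labelled Dnmt3a,3b 13 rose and 1 fell (median 0.25), against 10.4% of all genes higher and 10.8% lower. The parvin gene Parva rose by 1.20 ± 0.21 and 1.03 ± 0.15, and the kinase-like Ilk, its partner, by 0.68 ± 0.12 and 0.67 ± 0.02. Lims1, which encodes PINCH, the third protein of that complex, was the 1 that fell, to -0.85 ± 0.27 and -0.95 ± 0.04.

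Of 29 genes of basement membranes and laminin partners, 24 were measured. In Dicer-null cells 6 were higher and 8 lower (median 0.08): the matrix protein Egfl6 rose by 2.29 ± 0.31, while the hyaluronan receptor Cd44 fell by 1.57 ± 0.06 and the Fraser complex genes Fras1 and Frem2 were lower at -1.14 ± 0.02 and -2.06 ± 0.28. In cells labelled Dnmt1, 7 rose and 1 fell (median 0.08), and in cells labelled Dnmt3a,3b 8 rose and 0 fell (median 0.09). Of all genes, 20.4% were called higher and 20.1% lower in Dicer-null cells. The shares were 12% and 11% in cells labelled Dnmt1, and 10.4% and 10.8% in cells labelled Dnmt3a,3b. Tinagl1, a basement membrane protein, rose by 2.30 ± 0.05 and 2.21 ± 0.03, and the collagen IV chains Col4a1 by 1.23 ± 0.38 and 1.45 ± 0.16 and Col4a2 by 1.27 ± 0.08 and 1.33 ± 0.02. The tetraspanin Cd151, which binds laminin-receptor integrins, rose by 0.68 ± 0.25 and 0.67 ± 0.14. Col4a1, Col4a2 and Lamb1 were thus each higher in both Dnmt comparisons.

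Of 34 other integrin ligands, 28 were measured. In Dicer-null cells 6 were higher and 7 lower (median -0.05), beside 20.4% and 20.1% of all genes. In cells labelled Dnmt1 4 were higher and 7 lower (median 0.01), beside 12% and 11% of all genes. In cells labelled Dnmt3a,3b 6 were higher and 5 lower (median 0.08), beside 10.4% and 10.8% of all genes. Icam2, a ligand of Itgal, went the way Itgal did: it rose by 2.26 ± 0.02 in Dicer-null cells and fell by 1.44 ± 0.56 in cells labelled Dnmt1 and was lower at -0.98 ± 0.16 in cells labelled Dnmt3a,3b. The RGD protein Fbln5 rose by 2.65 ± 0.42 and 2.13 ± 0.20 in cells labelled Dnmt1 and Dnmt3a,3b. Thbs1, thrombospondin 1, fell by 2.20 ± 0.36 in Dicer-null cells and rose by 0.68 ± 0.20 in cells labelled Dnmt1 and 1.00 ± 0.03 in cells labelled Dnmt3a,3b. Spp1, osteopontin, a ligand of alpha V integrins, rose by 1.21 ± 0.01 in Dicer-null cells.

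Markers of other cell types moved in the same comparisons. Beside the counts below, 20.4% of all genes were called higher and 20.1% lower in Dicer-null cells. The shares were 12% and 11% in cells labelled Dnmt1, and 10.4% and 10.8% in cells labelled Dnmt3a,3b. Of 11 trophoblast markers measured of 12 listed, 7 were lower and 1 higher in Dicer-null cells, 7 were higher in cells labelled Dnmt1 and 8 in cells labelled Dnmt3a,3b, with medians of -0.99, 1.68 and 1.55. Their summed signal was 92700 to 213000 over wild-type channels, 32400 to 65200 in Dicer-null, 109000 to 276000 in cells labelled Dnmt1 and 107000 to 218000 in cells labelled Dnmt3a,3b, so the ranges of Dicer-null and Dnmt-labelled cells do not overlap. The keratin Krt7 was at -2.35 ± 0.14, 2.81 ± 0.30 and 2.72 ± 0.05 in the 3 comparisons, and the transcription factor Hand1 at -1.50 ± 0.12, 1.68 ± 0.33 and 1.55 ± 0.11. Each measured trophoblast marker was well above background on at least 1 array of every condition. Of 14 fibroblast markers measured of 16, 8 were lower and 3 higher in Dicer-null cells, with a summed signal of 96800 to 98300 in wild type and 56400 to 84700 in Dicer-null cells; Col1a1 was at -4.09 ± 0.13 and Tagln at -4.20 ± 0.13. In Dnmt1-labelled cells and in cells labelled Dnmt3a,3b 2 fibroblast markers were higher, and 2 and 1 lower, with sums of 52200 to 69600 and 49500 to 76200. Of 13 primitive and parietal endoderm markers measured of 14, 6 were lower and 1 higher in Dicer-null cells (sums 4100 to 4240 in wild type and 2290 to 2570 in Dicer-null), 3 higher and 3 lower in cells labelled Dnmt1 (2090 to 2760), and 3 and 2 in cells labelled Dnmt3a,3b (2150 to 2660). The part of these markers' cell types in the integrin and laminin values was not tested.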

How the data were processed

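Signals were read from the scanner files of 12 arrays, which held spot intensity values, background intensity values and a log10 ratio per spot, made by Agilent's Feature Extraction software per the file headers (version 9.1.3.1 on the 4 arrays with wild-type RNA and 9.5.1.1 on the rest). The authors also deposited a table of log2 ratios, whose columns matched the scanner ratio at r = 0.968 to 1.00. In R 4.3.3 with limma 3.58.1, intensities were background-corrected (normexp, offset 50), loess-normalised within arrays and averaged per probe. Control spots had weight 0 and flagged outliers were dropped. Dye-swapped arrays, 1 replicate, were turned and averaged into 6 ratios. These were fitted together as 3 comparisons, with 3 residual degrees of freedom, by lmFit and eBayes with Benjamini-Hochberg adjustment. A gene was tested when its probe was on all 12 arrays and well above background on both arrays of 1 RNA. A ratio of a dim RNA is a bound. The array number marks the dye orientation; deviations of same-numbered arrays correlated at 0.715 to 0.945 over 15 pairs of ratios. Deviations of same-clone ratios, from 1 cell line each, correlated at -0.128 to 0.365 over 3. All members were to be named, with every array where called with 1 sign on its 4 arrays, and up to 4 genes of each list by their statistic. The members and lists were chosen with earlier results of these data known. Symbols followed RefSeq on GRCm38.p6 for 22951 of 41174 probes; probe positions are the headers' (mm7). The fit was tested on simulated data. No per-sample column was left unused (0). The values of 1 member are not reported here, but it is included in the counts and medians.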

Additional observations from a re-analysis of the deposited data

Results flagged for a closer look

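In 5 of 105 member comparisons the clones lay on opposite sides of 0 on every array at the brightest probe. The difference between clones was not tested in any of them. Itgb1, the common beta chain, was at -0.20 in clone 27G5 and 0.75 in clone 27H10 in cells labelled Dnmt1 over Dicer-null. The second Itgb1 probe was above 0 in both clones there, at 0.25 and 0.62, so the opposed signs depend on the probe. Itgb8, a beta chain that pairs with alpha V, was at 0.57 in 27G5 and -0.55 in 27H10 in the same cells. Another Itgb8 probe, well above background on 3 of 12 arrays, was at 0.06 and -0.02. Lama1, a laminin alpha chain of the epiblast, was at 0.62 in 27G5 and -0.18 in 27H10 in Dicer-null over wild type. The second Lama1 probe was above 0 in both clones there, at 0.82 and 0.16. The other two were close to 0. In cells labelled Dnmt1, Itga10 was at -0.064 and 0.069, and in Dicer-null over wild type Itga4 was at -0.053 and 0.068.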

How the results depend on the processing

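No called member reversed its sign in any alternative that gave it a value, 18 for the Itga2b and Itgb6 calls and 19 for the rest. Dicer-null over wild type called 15 members, 5 with shared RNAs modelled and 8 to 15 with a clone or a dye orientation left out. Dnmt1 over Dicer-null called 11, but 7 with median centring, 0 with shared RNAs modelled, 0 when fitted alone, and 4 (without 27H10) to 12 (without 27G5) with a part left out. Dnmt3a,3b over Dicer-null called 9, but 0 with shared RNAs modelled, and 0 without either clone to 14 without the arrays numbered 2. Where a clone is left out, the ratio that remains is assumed to vary like the others. With the array number as a replicate block, the fits of 12 arrays, which enter technical dye swaps as separate observations, called 17, 19 and 15 members. With the clone as a block, the fit of the 6 averaged ratios called 15, 10 and 9. In the Dnmt comparisons these were not all members called in the main fit. Itga2b, Itga3, Itgae and Lama5 were lost in cells labelled Dnmt1 and Itgal in cells labelled Dnmt3a,3b. Called in every alternative were Itga11, Itga3, Itgae, Lama3 and Lamb1 over wild type, and 0 members in either Dnmt comparison. Over all genes the counts ran from 1944 to 9836, from 253 to 6668 and from 0 to 6491. Which genes were kept was not compared there, and the cause was not tested.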
